A study of Mus musculus with 12 samples.

Results

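The genes described are 7 mouse receptors for growth factors, Kit, Flt3, Pdgfra, Pdgfrb, Igf1r, Insr and Igf2r, taken by symbol from the 27179 Entrez gene rows of an RNA-seq count table. All 7 were found in the table, and 6 had enough counts to be tested. The samples are cells of ALL101, a primary mouse leukemia of the T-cell acute lymphoblastic type (T-ALL) that carries the transgenes Vav-tTA and TRE-GFP-shIkaros. In this design a tetracycline-off transactivator, expressed in blood cells, drives GFP together with a short hairpin RNA against Ikaros, the lymphoid transcription factor encoded by Ikzf1. Cells came from 3 leukemic recipient mice given doxycycline for 3 days, which per the labels shuts the hairpin off and restores endogenous Ikaros, and from 3 untreated leukemic recipients. Both groups carry the same transgenes and the same primary leukemia, so the 6 mice are recipients of a single leukemia and not independent tumours. Leukemic cells were sorted from spleen as GFPmid in the doxycycline group and as GFPhigh in the untreated group, so treatment and gate cannot be told apart. No library of cells without the hairpin given doxycycline was analysed here, so restored Ikaros and doxycycline itself cannot be told apart either. The labels used here give neither strain nor age of the recipients.

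Of the 7 receptors, 6 are receptor tyrosine kinases, cell-surface proteins that dimerize on binding a ligand and phosphorylate tyrosines on themselves and on substrates that feed the PI3K and Ras pathways. Kit, Flt3, Pdgfra and Pdgfrb form a family with immunoglobulin-like outer domains and a split kinase domain, while Igf1r and Insr form the insulin receptor family. Kit and Flt3 are known from blood stem cells and early lymphoid progenitors, Kit also from the earliest thymocytes, and the platelet-derived growth factor receptors from mesenchymal cells and pericytes. Igf2r, the cation-independent mannose 6-phosphate receptor, has no kinase domain. It sorts lysosomal enzymes and clears insulin-like growth factor 2, and so falls outside the kinase label of the other 6.

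The 2 sequencing runs of each RNA were summed per mouse, which gave 33899095 to 44949303 counts in doxycycline mice and 29904744 to 33063390 counts in untreated mice. Levels are CPM, counts per 1000000 counts of a library whose size was scaled by TMM, given per mouse or as mean ± SD of 3 mice. Ikzf1, the hairpin's target, stood at 1438, 1523 and 1495 CPM in doxycycline mice 1, 2 and 3, against 153, 150 and 159 CPM in untreated mice 1, 2 and 3, in the direction of the labels. The T-cell receptor chain genes Cd3d and Cd3e had 330 to 362 CPM in doxycycline mice and 306 to 365 CPM in untreated mice, and the T-cell kinase gene Lck had 1307 to 1508 CPM and 1256 to 1370 CPM in the same order of groups. These are the 3 of 13 T-cell markers that did not pass the test. Of the other chains of the complex, Cd3g fell to 386 ± 19.2 CPM in doxycycline mice, against 528 ± 18.6 CPM in untreated mice, and Cd247 rose to 303 ± 16.2 CPM, against 214 ± 18.8 CPM (SD, n = 3 each; adjusted p = 0.00094 and 0.0014 by edgeR). Untreated mouse 3 has a library name that carries INJ in place of the sort wording of the other mice, and whether it was sorted alike was not tested.

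Of the 6 receptors tested, Kit, Pdgfrb and Igf1r fell after doxycycline and Flt3 rose, while Insr and Igf2r did not pass the test. That is 4 of 6 called by edgeR's quasi-likelihood test at a Benjamini-Hochberg adjusted p under 0.05 over all genes, against 50.0% of the 13134 genes tested, where 24.8% were higher and 25.2% lower. All 4 changed at least 2-fold, which 14.1% of tested genes did while passing the test. The values of the groups did not overlap for these 4 receptors, as for 61.2% of all tested genes. Among the 13134 tested genes ordered from the most negative log2 fold change, Kit stood at place 37, Pdgfrb at 137 and Igf1r at 302. Flt3 stood at place 448 from the most positive end. In bulk RNA, fewer cells with a transcript and less transcript per cell cannot be told apart.

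**Figure D1:**
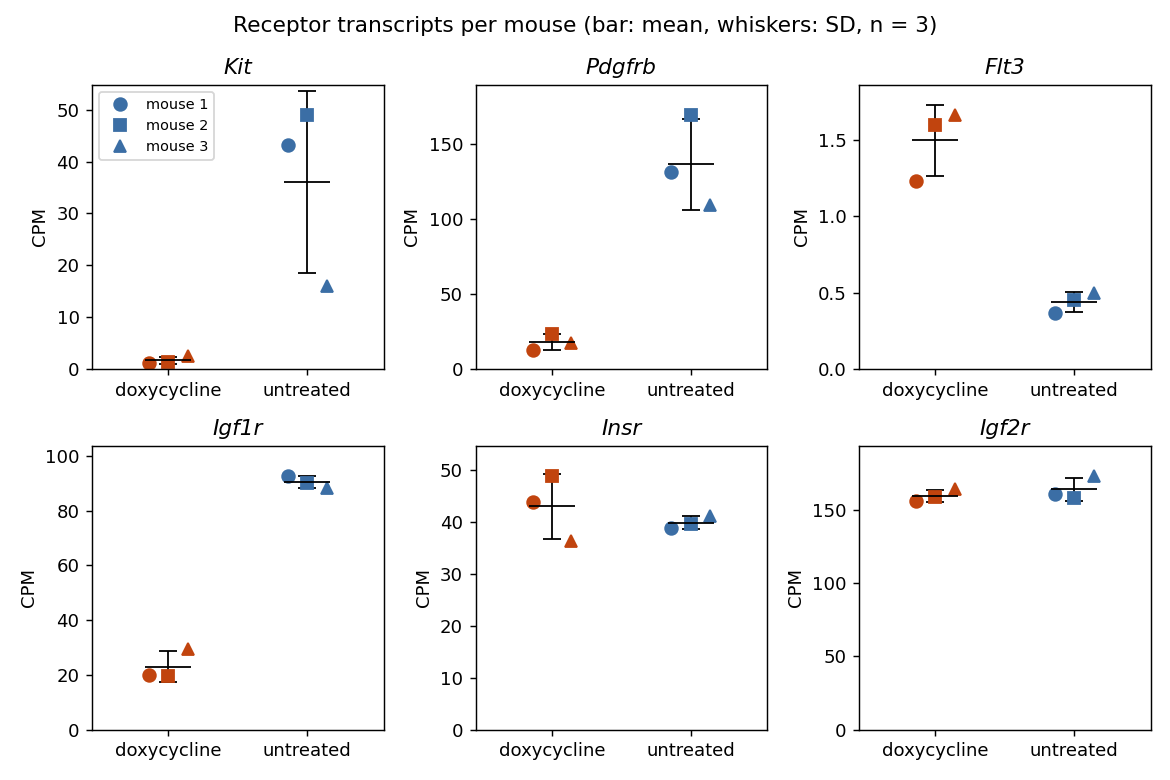
Transcript level (CPM, linear axis from 0) of 6 receptors in each of 3 doxycycline mice and 3 untreated mice; symbols mark the mouse number within a group, the bar is the mean and whiskers the SD. Kit, Pdgfrb and Igf1r lie lower in every doxycycline mouse than in any untreated mouse, Flt3 lies higher, and the groups overlap for Insr and Igf2r.

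Kit encodes the receptor for stem cell factor. It stood at 1.23, 1.27 and 2.46 CPM in doxycycline mice 1, 2 and 3, against 43.1, 48.9 and 16.0 CPM in untreated mice 1, 2 and 3. Every doxycycline mouse lay below every untreated mouse, and untreated mouse 3 held the lowest level of its group. Its mean was 1.65 ± 0.699 CPM after doxycycline and 36.0 ± 17.6 CPM without it (SD, n = 3 each), with a log2 fold change of -4.43 ± 0.57 (SE; adjusted p = 0.0022 by edgeR). The 95% interval of the log2 fold change ran from -5.86 to -3.00. The low value of untreated mouse 3 was present in both sequencing runs of its RNA, with 251 and 229 counts, against 649 and 637 counts in untreated mouse 1 and 838 and 787 counts in untreated mouse 2. Leaving out untreated mouse 3 gave a log2 fold change of -4.79. Kit (Entrez 16590) lies on chromosome 5 at 75574987 to 75656722 of GRCm38 (mm10).

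Mast cells, which carry much Kit, have the genes Ms4a2, Tpsb2, Cma1 and Mcpt4, and all of these had 0 counts in every mouse. Cpa3, a protease gene of mast cells and early progenitors, was the most abundant gene of the mast cell and basophil list, at 3.94, 1.04 and 1.86 CPM in doxycycline mice 1, 2 and 3 and 7.95, 4.01 and 1.83 CPM in untreated mice 1, 2 and 3. The summed level of the 8 genes of that list ran from 1.35 to 4.38 CPM in doxycycline mice and from 2.10 to 8.42 CPM in untreated mice. Cd34, a surface marker of stem and progenitor cells, reached at most 0.168 CPM in any mouse. Of 9 stem and progenitor markers, 6 were tested. Ly6a, Cd93 and Mpo fell and Slamf1 rose (66.7% called, against 50.0% of all tested genes), and the summed level was 47.0 to 53.5 CPM in doxycycline mice and 47.7 to 61.6 CPM in untreated mice. Most of this sum was Slamf1 and Ly6a, which moved in opposite directions, so their changes offset each other in it. Slamf1 averaged 37.8 ± 5.38 CPM in doxycycline mice and 18.2 ± 0.749 CPM in untreated mice (SD, n = 3 each). Ly6a averaged 10.2 ± 4.01 and 32.0 ± 5.13 CPM in the same order of groups. Mpo, the myeloperoxidase gene of myeloid progenitors, averaged 0.657 ± 0.363 CPM in doxycycline mice and 3.94 ± 2.78 CPM in untreated mice (SD, n = 3 each; adjusted p = 0.033 by edgeR). It lost its call when any mouse other than untreated mouse 3 was left out (edgeR adjusted p 0.071 to 0.094).

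Pdgfrb encodes the beta receptor for platelet-derived growth factor. It had 12.9, 23.5 and 17.4 CPM in doxycycline mice 1, 2 and 3, against 131, 169 and 109 CPM in untreated mice 1, 2 and 3. The highest doxycycline value, in mouse 2, remained far below the lowest untreated value, in mouse 3. Pdgfrb averaged 17.9 ± 5.32 CPM in doxycycline mice and 136 ± 30.3 CPM in untreated mice (SD, n = 3 each), a log2 fold change of -2.92 ± 0.27 (adjusted p = 0.0005 by edgeR). The 95% interval of the log2 fold change ran from -3.58 to -2.27. These levels rest on 438 to 1057 counts per doxycycline mouse and 3276 to 5604 counts per untreated mouse. Pdgfrb (Entrez 18596) is on chromosome 18.

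Among 12 stromal and pericyte markers, Dcn, Lum, Pdpn and Rgs5 had 0 counts in all 6 mice, and Col3a1 had a total of 1 count. The summed level of this list was 126 to 151 CPM in doxycycline mice and 106 to 117 CPM in untreated mice. Nearly all of it was Col1a2, a collagen chain gene, at 130 ± 12.4 CPM in doxycycline mice and 108 ± 6.32 CPM in untreated mice (SD, n = 3 each). Of the 3 genes tested, Col1a2 and its partner chain Col1a1 rose (adjusted p = 0.028 and 0.0012 by edgeR). That is 66.7% called, against 50.0% of all tested genes called and 24.8% called higher. The Col1a2 call ended when untreated mouse 1 or 2 or doxycycline mouse 1 or 3 was left out (adjusted p = 0.058, 0.121, 0.079 and 0.076 by edgeR). Cspg4, a pericyte proteoglycan gene, and Sparc, a matrix protein gene, were too scarce to be tested and were lower in doxycycline mice without overlap, as was Pdgfrb. Cspg4 had 1, 0 and 1 counts in doxycycline mice 1, 2 and 3 and 5, 4 and 4 counts in untreated mice 1, 2 and 3, and Sparc 0, 0 and 1 counts and 7, 5 and 2 counts in the same order. The part of stromal or pericyte RNA in the Pdgfrb level was not tested. Pdgfra, the alpha receptor and a fibroblast marker, had 0, 1 and 0 counts in doxycycline mice 1, 2 and 3 and 1, 2 and 0 counts in untreated mice 1, 2 and 3, and was not tested. At a count of 0 the level could still be as high as 0.0667 to 0.0885 CPM in doxycycline mice and 0.0907 to 0.1003 CPM in untreated mice, a limit of 3 counts that covers counting error only. Every Pdgfra value lay at or under 3 counts, so a difference was not detectable at this depth. Pdgfra (Entrez 18595) lies on chromosome 5 at 75151322 to 75198206.

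Flt3 encodes the receptor for the FLT3 ligand, a growth factor of lymphoid progenitors and dendritic cells. It had 42, 72 and 72 counts in doxycycline mice 1, 2 and 3, against 11, 15 and 15 counts in untreated mice 1, 2 and 3. In CPM these were 1.23, 1.60 and 1.66 in doxycycline mice and 0.369, 0.452 and 0.499 in untreated mice, in the same order of mice. The groups did not overlap, and the gene remained scarce in all 6 mice. The log2 fold change was 1.76 ± 0.27 (95% interval 1.14 to 2.38; adjusted p = 0.0012 by edgeR). Flt3 (Entrez 14255) lies on chromosome 5 at 147330741 to 147400489.

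Dendritic cells, which carry Flt3, were read from a list of 8 markers. Itgax, an integrin chain gene of dendritic cells, had 0.559, 0.644 and 0.690 CPM in doxycycline mice 1, 2 and 3 and 0.436, 0.572 and 0.0998 CPM in untreated mice 1, 2 and 3, and did not pass (adjusted p = 0.220 by edgeR). Xcr1, a chemokine receptor gene of one dendritic cell type, had 13, 11 and 12 counts in doxycycline mice 1, 2 and 3 and 2, 4 and 4 counts in untreated mice 1, 2 and 3, without overlap, and was too scarce to be tested. Zbtb46, Siglech and Clec9a reached at most 0.200, 0.0335 and 0.133 CPM in any mouse. Of this list 3 genes were tested, and Ccr9 rose and H2-Ab1, a class II antigen gene, fell (66.7% called, against 50.0% of all tested genes). The summed level was 488 to 898 CPM in doxycycline mice and 95.9 to 152 CPM in untreated mice, and most of it was Ccr9, a chemokine receptor gene that thymocytes also express. Of 9 macrophage and monocyte markers, 8 were tested and 7 rose, against 24.8% of all tested genes, with a summed level of 75.1 to 100 CPM in doxycycline mice and 20.9 to 28.5 CPM in untreated mice. Itgam, an integrin chain gene of myeloid cells, averaged 44.1 ± 5.52 CPM in doxycycline mice and 9.86 ± 0.820 CPM in untreated mice (SD, n = 3 each), and C1qa, a complement gene of macrophages, 6.86 ± 2.66 and 1.61 ± 0.392 CPM in the same order of groups. Lyz2, the lysozyme gene that macrophages express strongly, had 3.20 to 3.73 CPM in doxycycline mice and 2.10 to 3.42 CPM in untreated mice and did not pass (adjusted p = 0.429 by edgeR). The part of macrophage or dendritic cell RNA in the Flt3 level was not tested.

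Igf1r encodes the type 1 receptor for insulin-like growth factors. It stood at 19.8, 19.7 and 29.6 CPM in doxycycline mice 1, 2 and 3, against 92.6, 90.1 and 88.4 CPM in untreated mice 1, 2 and 3. The untreated mice lay close together, with a coefficient of variation of 2.34%, and all 3 doxycycline mice lay far below them, with mouse 3 the highest. The log2 fold change was -1.97 ± 0.16 (95% interval -2.34 to -1.60; adjusted p = 0.00012 by edgeR), a level 3.92-fold lower after doxycycline. Igf1r (Entrez 16001) lies on chromosome 7 at 67952257 to 68233668.

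Insr encodes the insulin receptor, the nearest relative of Igf1r. It had 43.9, 48.9 and 36.4 CPM in doxycycline mice 1, 2 and 3, against 38.9, 39.6 and 41.3 CPM in untreated mice 1, 2 and 3. The doxycycline values lay on both sides of the untreated ones. Its log2 difference was 0.11 ± 0.11 and did not pass (adjusted p = 0.425 by edgeR), with a 95% interval of 0.909 to 1.28 for the fold change. Insr (Entrez 16337) lies on chromosome 8 at 3150922 to 3279649.

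Igf2r had 156, 159 and 164 CPM in doxycycline mice 1, 2 and 3 and 161, 158 and 173 CPM in untreated mice 1, 2 and 3. The groups overlapped and no mouse stood apart. The log2 difference was -0.04 ± 0.06 (adjusted p = 0.632 by edgeR), with a 95% interval of 0.881 to 1.08 for the fold change. The antisense RNA gene Airn overlaps Igf2r, and without a stated strand setting their reads cannot be told apart. Airn averaged 3.69 ± 0.143 CPM in doxycycline mice and 3.45 ± 0.845 CPM in untreated mice (SD, n = 3 each; adjusted p = 0.723 by edgeR). Igf2r (Entrez 16004) lies on chromosome 17 at 12682406 to 12769706.

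Levels of different genes were compared per length, as RPKM, which divides CPM by the deposited gene length in kilobases. In doxycycline mice the order was Igf2r (17.9 ± 0.441 RPKM), Insr (4.60 ± 0.674), Pdgfrb (3.31 ± 0.982), Igf1r (1.92 ± 0.474), Flt3 (0.409 ± 0.0624) and Kit (0.319 ± 0.135), with Pdgfra near 0. In untreated mice it was Pdgfrb (25.2 ± 5.59 RPKM), Igf2r (18.4 ± 0.859), Igf1r (7.54 ± 0.177), Kit (6.95 ± 3.40), Insr (4.27 ± 0.133) and Flt3 (0.120 ± 0.0180), again with Pdgfra near 0. Among neighbours in these orders, the values overlapped between Insr and Pdgfrb, Pdgfrb and Igf1r, and Flt3 and Kit in doxycycline mice, and between Igf1r and Kit and between Kit and Insr in untreated mice. Pdgfrb had the highest level of the 7 receptors in each untreated mouse, though in untreated mouse 3 it stood at 20.1 RPKM beside 19.3 RPKM for Igf2r. In each doxycycline mouse Igf2r had the highest level.

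Summed over the 6 receptor tyrosine kinases, the level was 9.29, 11.9 and 10.5 RPKM in doxycycline mice 1, 2 and 3, against 44.5, 52.5 and 35.1 RPKM in untreated mice 1, 2 and 3. The sums did not overlap, and the mean was 4.17-fold lower after doxycycline. Pdgfrb made up 30.9 ± 5.43% of this sum in doxycycline mice and 57.0 ± 2.53% in untreated mice. Kit made up 3.05 ± 1.31% and 15.2 ± 5.54%, and Insr 43.8 ± 6.69% and 9.98 ± 2.32%, each in the same order of groups (SD, n = 3 each). The share of Igf1r overlapped between groups, at 18.4 ± 4.87% in doxycycline mice and 17.6 ± 3.34% in untreated mice. Exact two-sided permutation tests of 3 against 3 mice cannot give a p below 0.1. In all, 12 sums, shares and ratios were compared. The tests gave 0.1 for the sum and for the Pdgfrb, Kit and Insr shares, and 0.9 for the Igf1r share. Insr itself stood at 4.60 ± 0.674 RPKM in doxycycline mice and 4.27 ± 0.133 RPKM in untreated mice. Its share was thus bound to grow as the sum fell, and the test of that share adds nothing about Insr.

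**Figure D2:**
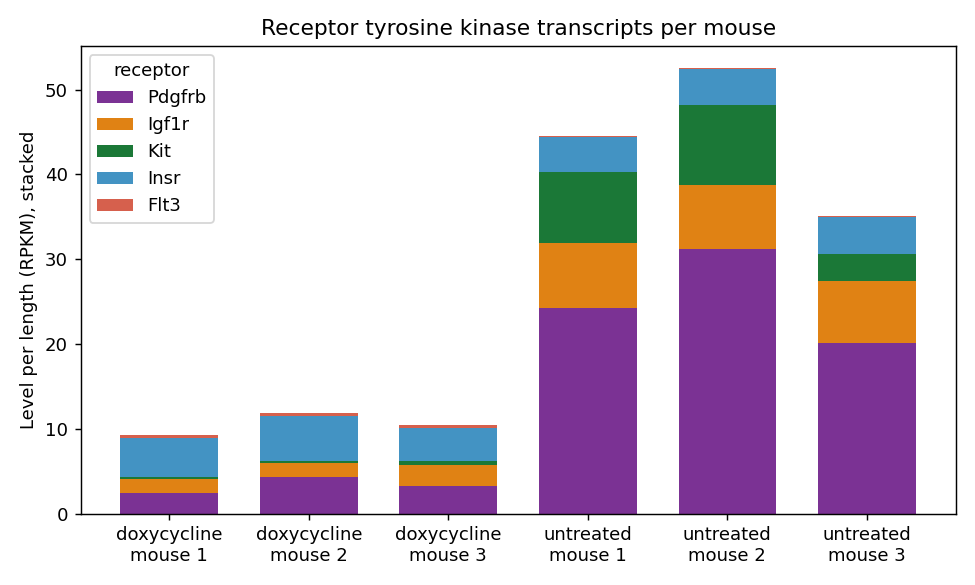
Level per length (RPKM) of 5 receptor tyrosine kinases stacked for each mouse, doxycycline mice on the left and untreated mice on the right; Pdgfra is near 0 and not drawn. The stacks reach 9.29 to 11.9 RPKM in doxycycline mice and 35.1 to 52.5 RPKM in untreated mice. The Insr segment is 3.89 to 5.23 RPKM high in doxycycline mice and 4.15 to 4.41 RPKM high in untreated mice.

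Since Igf1r and Insr products can pair into hybrid receptors, their ratio within each mouse is given. The ratio of Igf1r to Insr in RPKM was 0.352, 0.314 and 0.634 in doxycycline mice 1, 2 and 3, against 1.86, 1.78 and 1.67 in untreated mice 1, 2 and 3. Insr exceeded Igf1r in each doxycycline mouse, and Igf1r exceeded Insr in each untreated mouse (exact permutation p = 0.1, the smallest possible). Ratios between receptors that fell were compared in the same way. The ratio of Kit to Igf1r was 0.144, 0.149 and 0.192 in doxycycline mice 1, 2 and 3, against 1.08, 1.26 and 0.418 in untreated mice 1, 2 and 3 (exact permutation p = 0.1). For the other such ratios the groups nearly touched (exact permutation p = 0.1 each). Kit to Pdgfrb was 0.0563 to 0.148 in doxycycline mice and 0.153 to 0.344 in untreated mice. Pdgfrb to Igf1r was 1.30 to 2.64 in doxycycline mice and 2.73 to 4.15 in untreated mice. The ratio of Flt3 to Kit was 1.42, 1.79 and 0.954 in doxycycline mice 1, 2 and 3, against 0.0121, 0.0131 and 0.0443 in untreated mice 1, 2 and 3 (exact permutation p = 0.1). Flt3 thus exceeded Kit in doxycycline mice 1 and 2 only. In doxycycline mouse 3 the pair stood nearly level, with Kit slightly higher.

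**Figure D3:**
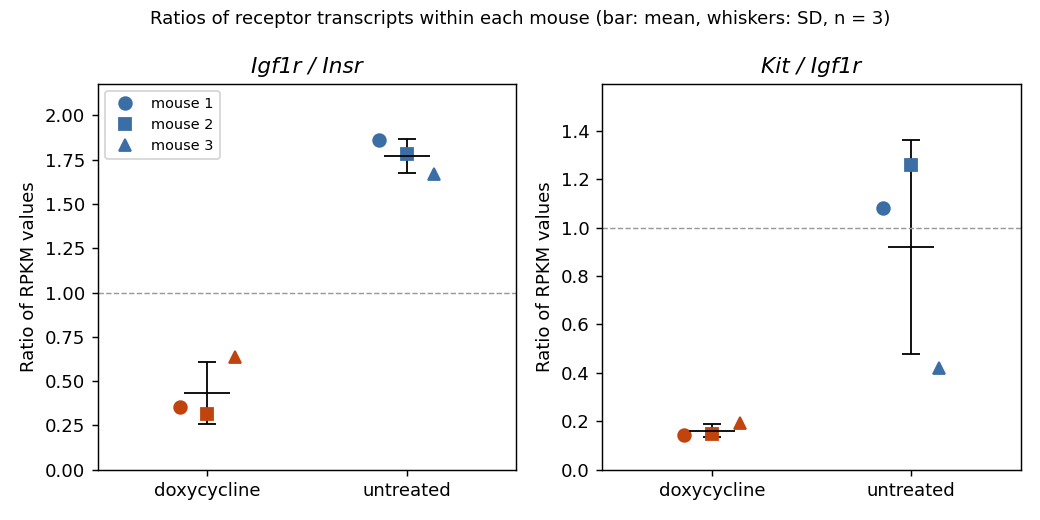
Ratios of Igf1r to Insr (left panel) and of Kit to Igf1r (right panel), each from RPKM values within a mouse, for 3 doxycycline and 3 untreated mice; the bar is the mean, whiskers the SD and the dashed line a ratio of 1. The Igf1r to Insr ratio lies between 0.314 and 0.634 in doxycycline mice and between 1.67 and 1.86 in untreated mice.

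The promoters of Kit and Igf1r, which fell, and of Flt3, which rose, are shown because Ikaros is known to bind DNA at sites with a GGGAA core. Each is the 250 bases before the RefSeq start in GRCm38.p6, read 5′ to 3′ on the gene's strand, with GGGAA or its complement TTCCC in capitals. They are chr5:75574737-75574986 on the plus strand for Kit, chr5:147400490-147400739 on the minus strand for Flt3 and chr7:67952007-67952256 on the plus strand for Igf1r.
Kit: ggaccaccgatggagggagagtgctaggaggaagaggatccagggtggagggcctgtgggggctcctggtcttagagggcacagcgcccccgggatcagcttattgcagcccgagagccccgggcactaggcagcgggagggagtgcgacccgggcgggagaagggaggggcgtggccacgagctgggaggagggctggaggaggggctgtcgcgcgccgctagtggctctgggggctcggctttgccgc
Flt3: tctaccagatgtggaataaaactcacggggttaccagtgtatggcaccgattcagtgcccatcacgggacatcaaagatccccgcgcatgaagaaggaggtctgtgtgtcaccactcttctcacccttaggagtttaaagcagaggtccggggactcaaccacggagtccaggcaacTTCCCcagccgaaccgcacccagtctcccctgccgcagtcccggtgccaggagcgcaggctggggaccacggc
Igf1r: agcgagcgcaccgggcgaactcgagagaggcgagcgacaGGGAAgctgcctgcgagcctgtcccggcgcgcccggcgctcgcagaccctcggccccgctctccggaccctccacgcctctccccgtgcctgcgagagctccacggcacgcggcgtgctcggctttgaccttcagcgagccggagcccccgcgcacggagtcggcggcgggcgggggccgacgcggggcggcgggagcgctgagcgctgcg
The Kit window held 0 copies of GGGAA on either strand, the Flt3 window 1 copy on the opposite strand, starting 73 bases before the start, and the Igf1r window 1 copy starting 211 bases before it. Kit had 2 promoter entries, and only the first by coordinate was read. Of 32851 promoter windows of the same length, 56.2% held at least 1 copy on either strand. The longer word TGGGAA, the core shared with sites of the Notch effector RBPJ and containing GGGAA, was in 0 of the 3 windows, against 21.6% of all windows. The dinucleotide CG occurred 17 times in the Kit window, 13 times in the Flt3 window and 42 times in the Igf1r window, against a median of 6 (quartiles 2 and 16) over all windows. The window of the same kind for Igf2r held 1 copy of GGGAA.

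Of 10 ligand genes for these receptors, 4 were tested, of which 2 were higher and 1 lower (3 of 4 called, against 50.0% of all tested genes), with a median log2 fold change of 0.02. Flt3l, the FLT3 ligand gene, had 22.0, 14.7 and 17.9 CPM in doxycycline mice 1, 2 and 3, against 4.19, 3.89 and 3.06 CPM in untreated mice 1, 2 and 3. All doxycycline values lay above all untreated values, and the log2 fold change was 2.29 ± 0.19 (adjusted p = 9.0e-05 by edgeR). Ligand and receptor of this pair were thus both higher after doxycycline. Pdgfb, a ligand of Pdgfrb, had 0.382, 0.555 and 0.460 CPM in doxycycline mice 1, 2 and 3 and 1.44, 1.75 and 2.53 CPM in untreated mice 1, 2 and 3. Receptor and ligand of this pair were both lower, with a log2 fold change of -2.01 ± 0.31 for Pdgfb (adjusted p = 0.0011 by edgeR). Pdgfc, which is known to signal mainly through the alpha receptor, averaged 1.34 ± 0.381 CPM in doxycycline mice and 3.74 ± 2.47 CPM in untreated mice (SD, n = 3 each) and did not pass (adjusted p = 0.055 by edgeR). Without untreated mouse 1, the lowest of its group, it passed as lower, with a log2 fold change of -1.88 (adjusted p = 0.0051 by edgeR).

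Igf1, the main ligand of Igf1r, had 1.23, 1.91 and 0.966 CPM in doxycycline mice 1, 2 and 3, against 0.369, 0.843 and 0.200 CPM in untreated mice 1, 2 and 3. The values of the groups did not overlap, and Igf1 rose by 1.52 ± 0.49 log2 units (adjusted p = 0.032 by edgeR) while its receptor fell. Left out in turn, untreated mouse 1 or 3 and doxycycline mouse 1 or 2 each ended this call, with edgeR adjusted p-values of 0.105, 0.066, 0.066 and 0.087, and with untreated mouse 2 left out Igf1 stood 2.25 log2 units higher. Igf1 is also made by macrophages, whose markers rose as given above, and their part in the Igf1 level was not tested. Kitl, the Kit ligand gene, had 8, 5 and 11 counts in doxycycline mice 1, 2 and 3 and 7, 6 and 2 counts in untreated mice 1, 2 and 3, too few to be tested. Igf2 and Pdgfd had at most 1 count and Pdgfa at most 2 counts in any mouse. The insulin genes Ins1 and Ins2 had 0 counts throughout.

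**Figure D4:**
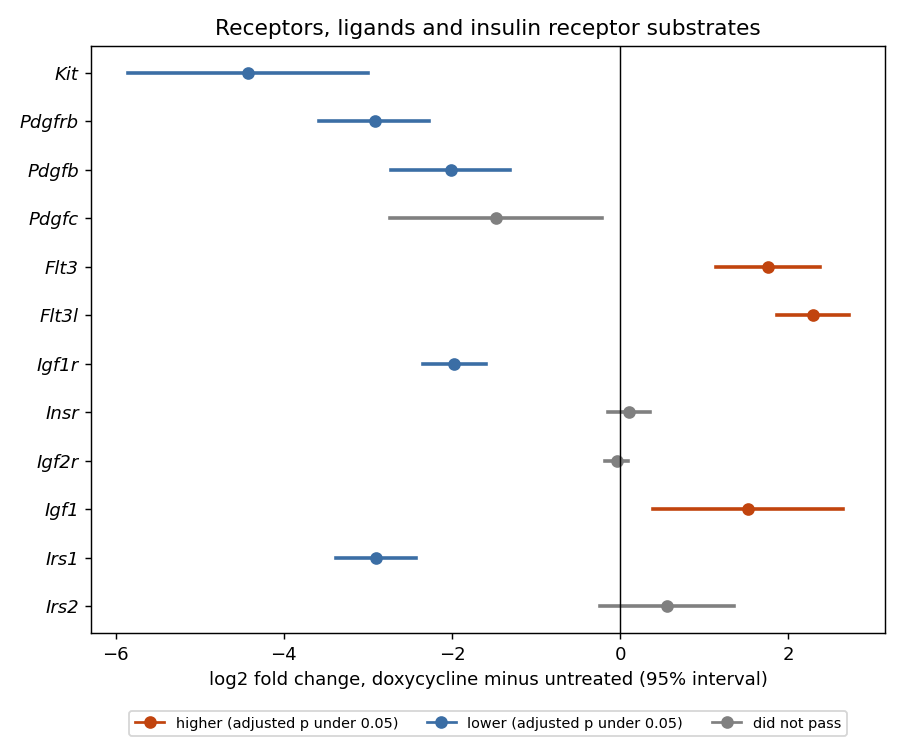
Log2 fold change of doxycycline minus untreated mice (horizontal axis) with its 95% interval for receptors, the ligands tested and the insulin receptor substrates Irs1 and Irs2; colour shows the call at an adjusted p under 0.05. Kit, Pdgfrb, Pdgfb, Igf1r and Irs1 lie left of 0, Flt3, Flt3l and Igf1 lie right of it, the intervals of Insr, Igf2r and Irs2 include 0, and Pdgfc did not pass after adjustment although its interval lies left of 0.

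Among 26 substrates and adaptors through which these receptors signal, 23 were tested, of which 8 were higher and 4 lower, 52.2% against 50.0% over all genes, with a median log2 fold change of 0.13. Irs1, the insulin receptor substrate that docks to Igf1r and Insr, fell with Igf1r. It had 0.970, 0.977 and 1.45 CPM in doxycycline mice 1, 2 and 3, against 7.95, 8.34 and 9.25 CPM in untreated mice 1, 2 and 3, a log2 fold change of -2.90 ± 0.21 (adjusted p = 5.2e-05 by edgeR). No doxycycline value came near the untreated ones. Its relative Irs2 averaged 9.70 ± 0.998 CPM in doxycycline mice and 6.60 ± 3.51 CPM in untreated mice (SD, n = 3 each) and did not pass (adjusted p = 0.208 by edgeR). Untreated mouse 3, at 10.6 CPM, stood above the other untreated mice, at 4.36 and 4.79 CPM, and without it Irs2 passed as higher, at 1.08 log2 units (adjusted p = 0.0015 by edgeR). Of the PI3K regulatory subunits, Pik3r1 rose to 612 ± 86.0 CPM in doxycycline mice, against 242 ± 32.8 CPM in untreated mice (SD, n = 3 each), and Pik3r2 fell by 0.50 ± 0.09 log2 units (adjusted p = 0.00022 and 0.0019 by edgeR). The adaptor genes Grb2 and Shc1, which link receptors to Ras, rose by 0.51 and 0.46 log2 units, and Vav1, an exchange factor gene of blood cells, by 0.33 (adjusted p = 0.0006, 0.00081 and 0.0064 by edgeR).

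Among 25 genes that attenuate receptor signalling, 21 were tested, of which 8 were higher and 2 lower (47.6% called, against 50.0% of all tested genes), with a median log2 fold change of 0.01. Cbl, a ubiquitin ligase gene for activated receptors including Kit, averaged 407 ± 13.4 CPM in doxycycline mice and 309 ± 8.94 CPM in untreated mice (SD, n = 3 each; adjusted p = 0.0012 by edgeR). The adaptor genes Sla and Sla2, which act with CBL in lymphocytes, rose by 0.93 ± 0.08 and 0.73 ± 0.10 log2 units (adjusted p = 0.00011 and 0.00064 by edgeR). Dok2, a docking protein gene that restrains Ras, rose by 0.88 ± 0.13, and the phosphatase gene Ptpre by 0.96 ± 0.12 (adjusted p = 0.0012 and 0.0004 by edgeR). Nedd4l, a ubiquitin ligase gene, fell by 0.62 ± 0.10 log2 units (adjusted p = 0.0012 by edgeR). In the list of 17 genes for insulin-like growth factor binding and mannose 6-phosphate sorting, 9 were tested, with 1 higher and 1 lower (22.2% called, against 50.0% of all tested genes). Gnptab, which encodes the enzyme that begins the mannose 6-phosphate tag read by Igf2r, fell by 0.47 ± 0.07 log2 units, and Gnptg, its other subunit, rose by 0.50 ± 0.11 (adjusted p = 0.0011 and 0.0058 by edgeR). M6pr, the smaller mannose 6-phosphate receptor, averaged 149 CPM in doxycycline mice and 156 CPM in untreated mice and did not pass (adjusted p = 0.403 by edgeR).

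Of 52 other receptor tyrosine kinase genes, 16 were tested and 37 stayed under 1 CPM in every mouse, so most of the class was scarce in these cells. Among those tested, 6 were higher and 4 lower (62.5% called, against 50.0% of all tested genes), with a median log2 fold change of 0.19. Ephb6, a kinase-inactive ephrin receptor gene of T cells, averaged 180 ± 23.2 CPM in doxycycline mice and 49.0 ± 12.4 CPM in untreated mice (SD, n = 3 each; adjusted p = 0.00047 by edgeR). Ptk7, another receptor gene without kinase activity, averaged 47.1 ± 11.2 CPM in doxycycline mice and 108 ± 11.5 CPM in untreated mice (SD, n = 3 each; adjusted p = 0.0013 by edgeR). Erbb3 fell by 2.29 ± 0.35 log2 units and Ntrk3 rose by 3.33 ± 0.37 from very low levels (adjusted p = 0.0012 and 0.0003 by edgeR). Lmtk2, a lemur kinase gene, rose by 0.51 ± 0.09 log2 units (adjusted p = 0.0023 by edgeR). Mertk, an apoptotic cell receptor gene of macrophages, rose by 2.32 ± 0.41 log2 units (adjusted p = 0.0022 by edgeR).

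The genes beside the receptors on the chromosomes were read from the 2 nearest protein-coding genes on each side in RefSeq. Pdgfrb and Csf1r, the receptor gene for colony-stimulating factor 1, are neighbours 20.5 kb apart, and they moved in opposite directions. Csf1r, also a macrophage marker, had 12.9, 21.2 and 12.2 CPM in doxycycline mice 1, 2 and 3, against 4.53, 5.96 and 3.03 CPM in untreated mice 1, 2 and 3, and rose by 1.78 ± 0.31 log2 units (adjusted p = 0.0031 by edgeR). Kit lies between Pdgfra and Kdr, a vascular endothelial growth factor receptor gene, and Kdr reached at most 0.268 CPM in any mouse, so in this cluster of 3 receptors Kit alone exceeded 1 CPM. Srd5a3, the gene beyond Kdr, rose by 0.52 ± 0.09 log2 units (adjusted p = 0.0021 by edgeR). Beside Igf1r, Pgpep1l, 1.85 kb away, averaged 6.44 ± 1.10 CPM in doxycycline mice and 10.2 ± 0.263 CPM in untreated mice, and Fam169b 162 ± 8.09 and 228 ± 12.6 CPM in the same order of groups (SD, n = 3 each; adjusted p = 0.0068 and 0.00082 by edgeR). Beside Insr, which did not pass, Arhgef18 rose by 0.97 ± 0.09 log2 units (adjusted p = 0.00011 by edgeR), and beside Flt3, Pan3 rose by 0.39 ± 0.10 (adjusted p = 0.010 by edgeR). Hmgxb3, beyond Csf1r, fell by 0.21 ± 0.06 log2 units (adjusted p = 0.025 by edgeR), a call that ended without untreated mouse 1, 2 or 3 or doxycycline mouse 1 (adjusted p = 0.076, 0.059, 0.054 and 0.072 by edgeR). Chic2 beside Pdgfra, Pex11g beside Insr and Ttc23 beside Igf1r did not pass (adjusted p = 0.078, 0.114 and 0.193 by edgeR). Gsx2, Urad and Cdx2 had 0 counts in every mouse. Kdr, Flt1, Cdx1, Synm, Slc22a2, Mas1 and Mrgprh had too few counts to be tested. With Airn, 22 genes beside the receptors were in the table and 11 were tested, with 4 higher and 3 lower (63.6% called, against 50.0% of all tested genes).

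Among genes over 5 CPM in the higher group, those whose log2 CPM ran most like each receptor over the 6 mice were found by Pearson's r, which here mostly reflects the difference between the groups of 3 and is given as a description. For Kit they were Kank2, Fto and Kctd12 (r = 0.9988, 0.9985 and 0.9984), for Pdgfrb Prss57, Afg3l2 and Nckap1 (0.9993, 0.9986 and 0.9985), and for Igf1r Nop10, Acad9 and Myo7a (0.9998, 0.9995 and 0.9993). For Flt3 they were Sertad3, Sptan1 and Gatad2b (0.9991, 0.9987 and 0.9973). An r over 0.95 was common, with 10.8% of the other tested genes for Kit, 7.35% for Pdgfrb, 11.2% for Igf1r and 6.48% for Flt3. Kctd12 had 3.44, 3.29 and 5.15 CPM in doxycycline mice 1, 2 and 3 and 40.2, 49.5 and 18.2 CPM in untreated mice 1, 2 and 3, with untreated mouse 3 the lowest of its group, as for Kit. For Insr, Zfp451, Atxn1l and Rc3h1 ran most like it (r = 0.9868, 0.9742 and 0.9739), and for Igf2r, Tuba1c, Slc39a11 and Ptpn9 (0.9892, 0.9851 and 0.9817). An r over 0.95 was reached by 11 genes for Insr and 8 for Igf2r.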

How the data were processed

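The authors deposited raw read counts per Entrez gene, with a gene length, for 12 libraries of 6 mice. The tools named in the submitters' processing notes are featureCounts and CASAVA 1.8.1, and the build is mm10. No label or file header states the aligner, annotation or strand setting, so reads of overlapping or antisense genes cannot be assigned with certainty. The per-library tables equalled the whole-series table in 12 of 12 libraries.

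The 2 runs of each mouse were summed, since they differed by little more than counting error (chi-square per degree of freedom 1.0067 to 1.0362). At these depths 1 CPM is 29.905 to 44.949 counts. Symbols came from RefSeq GRCm38.p6 for 25275 of 27179 identifiers (93%), and the counts without a symbol (0.674 to 1.85% per mouse) stayed in the totals. edgeR 4.0.16 (R 4.3.3) was run with filterByExpr, TMM factors and a robust quasi-likelihood fit without a block, with Benjamini-Hochberg adjustment over 13134 genes. Each SE was derived from a gene's log2 fold change and its F statistic. RPKM was computed from the counts, TMM-scaled library sizes and the deposited lengths. Log2 CPM used a prior count of 2. The fits were checked on simulated counts with far fewer changed genes than were called here. That check does not cover so large a share of changed genes. Promoter windows are RefSeq sequences of GRCm38.p6, used for Kit, Flt3, Igf1r and Igf2r.

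Members and gene lists were chosen with earlier results of these data known. Named were all receptors, ligands and neighbouring genes, up to 6 called genes of each list by p, the 3 genes most like each receptor, and markers by abundance or at 0, apart from a few genes not reported here. Lyz2, Itgax, Xcr1, Cspg4, Sparc, Cd3g, Cd247 and the genes described as not passing in other lists came from the same lists and were chosen after their values were seen. Nothing in the labels says more of the mice than that they are separate recipients, so p-values measure the spread between these mice. The 19 alternatives were other size factors, filters, tools (DESeq2 1.42.0 and limma-voom, limma 3.58.1), single runs, the replicate number as a block, and mice left out.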

Additional observations from a re-analysis of the deposited data

How the results depend on the processing

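Under all 19 alternatives Kit, Pdgfrb and Igf1r remained lower and Flt3 higher, and each kept its call at an adjusted p under 0.05, with log2 fold changes of -4.84 to -4.15, -3.30 to -2.74, -2.19 to -1.85 and 1.54 to 2.02. Insr (0.02 to 0.22) and Igf2r (-0.07 to 0.01) were called under none of them, and the Igf2r difference was 0.01 for run 2 alone and 0.01 without both untreated mouse 3 and doxycycline mouse 2. Over all genes 4869 to 7475 were called, against 6571. The order of levels was equal with TPM for 14 of 14 ranks. Within a mouse, TPM and RPKM differ only by a factor common to all genes, so this order could hardly change. No label pairs the mice by replicate number. Deviations of same-numbered mice correlated at 0.156, -0.012 and -0.103, and those of unlike-numbered mice at -0.191 to 0.168. With 3 mice per group these values cannot exclude a pairing. With the replicate block, 4 receptors were called, Kit at -4.32 (adjusted p = 0.018 by edgeR) and Pdgfrb at -2.94 (adjusted p = 0.00041 by edgeR), and 6259 genes were called in all. Small lists moved more. Ligands (2 higher, 1 lower) gave 1 and 1 with a filter of 1 CPM, with quality weights and without untreated mouse 3, doxycycline mouse 1 or 2 or both untreated mouse 3 and doxycycline mouse 2, 2 and 2 with DESeq2 or without the robust fit, and 1 and 2 for run 1 alone or without untreated mouse 1. Insulin-like growth factor and mannose 6-phosphate genes gave 1 and 2 with no filter, with quality weights and without untreated mouse 3, doxycycline mouse 2 or both, against 1 and 1. Attenuators gave 7 to 10 higher and 1 to 4 lower, against 8 and 2, substrates 9 and 7 without both mice, against 8 and 4, other receptor kinases 5 and 2 for run 1 alone, against 6 and 4, and progenitor transcription factors 8 and 3 with quality weights, against 5 and 2. Calls over all genes moved too, from 4869 without untreated mouse 2 to 7475 with quality weights, against 6571. With quality weights, progenitor transcription factors and ligands were called less often than all genes. Ligands in the other settings named, substrates without both mice and other receptor kinases for run 1 alone were called more often. The insulin-like growth factor and mannose 6-phosphate list was called less often in each setting named. Attenuators lay on both sides. The cause of these moves was not tested. At this depth Pdgfra, Kitl and most other receptor kinases could not be tested, and Flt3 rests on 11 to 72 counts a mouse.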

Other observations

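Of 30 transcription factor genes of blood progenitors and early T cells, 20 were tested, of which 5 rose and 2 fell (35.0%, against 50.0% of all genes), with a median log2 fold change of 0.28. Mecom, a stem cell zinc finger gene, had 1.35 ± 0.392 CPM in doxycycline mice and 18.3 ± 7.83 CPM in untreated mice, and Runx1, a regulator of blood cell formation, 172 ± 2.83 CPM and 279 ± 14.6 CPM in the same order of groups (SD, n = 3 each; adjusted p = 0.0007 and 0.00012 by edgeR). Its relative Runx2 stood at 4.52 ± 1.39 CPM in doxycycline mice and 0.349 ± 0.157 CPM in untreated mice, and Tcf7, which directs early T-cell development, at 4846 ± 22.5 CPM and 3575 ± 115 CPM (SD, n = 3 each; adjusted p = 0.0002 and 0.00081 by edgeR). Fli1 and Mitf rose by 0.47 ± 0.10 and 0.95 ± 0.25 log2 units (adjusted p = 0.0055 and 0.013 by edgeR). Bcl11b rose by 0.25 ± 0.08 (adjusted p = 0.034 by edgeR), a call that ended without untreated mouse 1, 2 or 3 or doxycycline mouse 1 (adjusted p = 0.115, 0.072, 0.079 and 0.108 by edgeR) and with the replicate block (0.054). Hoxa7 and Hoxa10 had 0 counts in every mouse.

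Of 13 T-cell markers, all were tested, 8 rose and 2 fell (76.9% called, against 50.0% of all tested genes). The coreceptor genes Cd8a and Cd4 had 1810 ± 407 CPM and 453 ± 119 CPM in doxycycline mice, against 446 ± 52.2 CPM and 102 ± 25.1 CPM in untreated mice (SD, n = 3 each; adjusted p = 0.00024 and 0.0012 by edgeR). Ptcra, the pre-T-cell receptor alpha gene of immature thymocytes, had 27.7 ± 18.1 CPM in doxycycline mice and 125 ± 17.3 CPM in untreated mice (SD, n = 3 each; adjusted p = 0.015 by edgeR), and missed the threshold without untreated mouse 2 (adjusted p = 0.053 by edgeR), while with doxycycline mouse 2 left out it stood at -2.85 log2 units, against -2.17 with all mice.

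Among the other cell type lists, the sum of 6 endothelial markers was 199 to 211 CPM in doxycycline mice and 116 to 147 CPM in untreated mice. Nearly all of it was Pecam1, with Emcn at 0, so the sum is in effect the level of that gene. Cdh5, Vwf, Tek and Kdr reached at most 0.369, 0.335, 0.0588 and 0.268 CPM in any mouse. The B-cell sum was 1.20 to 1.41 CPM in doxycycline mice and 0.931 to 1.45 CPM in untreated mice, with Pax5 at 0. Of its 3 tested genes 0 were called, against 50.0% of all tested genes (lowest adjusted p = 0.408 by edgeR). These genes, Cd79a, Cd79b and Blnk, were scarce, with at most 16, 20 and 30 counts in any mouse. The erythroid and platelet sum was 48.2 to 59.1 CPM in doxycycline mice and 5.93 to 35.0 CPM in untreated mice, and 3 of 8 tested genes rose (37.5%, against 24.8% of all tested genes). Untreated mouse 3 stood apart in its group, with Hba-a2, an alpha globin gene with the near-identical copy Hba-a1, at 18.1 CPM, against 2.85 and 1.33 CPM in untreated mice 1 and 2 and 24.3 to 26.9 CPM in doxycycline mice. Without that mouse Hba-a1, Hba-a2, Klf1 and Gp1ba also passed as higher (adjusted p = 0.00022, 0.00021, 0.044 and 0.039 by edgeR), so that 7 of 8 rose. In that fit 3119 of all 13423 genes tested were higher. The same mouse was the lowest of its group in Kit. The calls of Epor and Alas2 each ended when untreated mouse 1 or 2 or doxycycline mouse 1 was left out (adjusted p 0.052 to 0.054 for Epor and 0.055 to 0.106 for Alas2, by edgeR). Alas2 also lost its call without doxycycline mouse 2 or 3 (adjusted p = 0.089 and 0.068 by edgeR), and without untreated mouse 3 its log2 fold change was 2.61, against 1.69 with all mice. The part of these cells' RNA in the receptor levels was not tested.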
